A study of Mus musculus with 6 samples.

Results

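Mouse chromosome 1 was examined as a stretch of neighbouring genes, by the RNA level of every gene model on it in 6 libraries from skin carcinogenesis with DMBA and TPA. Its members were chosen by position and level: all models on chromosome 1 of the mm9 genome build with a mean of at least 5 CPM (counts per 1000000 counts of a library) over the 6 libraries. They numbered 684, of 1285 models on chromosome 1 and 23726 in the whole table. On the other 18 autosomes, 10640 models passed the same level. A gene can pass this mean through 1 library alone. Levels are given in CPM scaled between libraries by trimmed means (TMM), which compare the bulk of the genes, and log2 ratios have 0.5 CPM added to each side. The chromosome was picked because its RNA was high in the tumour against the papillomas, so every tumour to papilloma value here is a description without a test. The same holds for the ratio of mSCC-38 to mSCC-20, which the choice also named. The mean levels just under the limit were 4.80, 4.84 and 4.91 CPM (Zbtb37, Nmnat2 and Hmga2-ps1), and those just above it were 5.15, 5.21 and 5.22 CPM (Hhat, Eya1 and Mpp4). The tumour to papilloma log2 ratios of these models were 2.31, 0.24 and 0.78 outside the limit, and 1.10, -1.02 and -0.31 inside it.

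The biopsies were 1 healthy skin, 2 distinct papillomas and 1 tumour, the last 3 induced with DMBA/TPA. DMBA is a mutagenic hydrocarbon, and TPA is a phorbol ester that drives keratinocyte growth. The cultured samples were mSCC-20 (labelled non tumorigenic) and mSCC-38 (labelled highly tumorigenic), 1 library each, both of skin cells from a DMBA/TPA tumour. The labels give no strain, age or number of mice, and do not say whether the tumour biopsy and either culture share an animal. They call the lesion a tumour and do not use the word carcinoma for it.

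Cells with an extra copy of a chromosome usually carry more RNA from most of its genes, with wide variation between genes, and a missing copy gives less. Extra copies of whole chromosomes, 6 and 7 among them, are known from mouse skin papillomas and carcinomas made with DMBA and TPA. Chromosome 1 of the mouse carries genes for laminin chains of the epidermal basement membrane, for the Serpinb protease inhibitors of differentiating keratinocytes, and for caspase 8, Bcl2 and Mdm4. DNA was not measured here, so a change in gene copies and a change in RNA per copy cannot be told apart. In bulk samples, fewer cells of a type and less RNA per cell cannot be told apart either.

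The shallowest library was papilloma 1, with 25140489 counts, and the deepest the tumour, with 42992597. RNA integrity numbers lay between 7.5 in skin and 9.6 in mSCC-38. Only papilloma has more than 1 library. Whether the papillomas grew on different mice is not stated, so any p-value rests on how far these 2 libraries differ, which may be technical. Of 8 sets of cell type markers, the 6 keratinocyte genes summed to 28720 CPM in the tumour against 55510 and 43950 CPM in the papillomas. Markers of this cell type were thus abundant in all 3 lesions. Of these 6 genes, the tumour lay above both papillomas in 3 and below both in 3. The 6 leukocyte genes were all higher in the tumour than in both papillomas, with sums of 301.9 CPM against 167 and 165 CPM. Fibroblast sums did not separate the lesions, at 3586 CPM in the tumour and 3948 and 3143 CPM in the papillomas. Single fibroblast genes went both ways, with the tumour above both papillomas in 2 of 6 and below both in 2. Sums for skeletal muscle were 530.0 CPM against 1443 and 886 CPM, and those for endothelium 155 CPM against 167 and 146 CPM. Adipocyte genes summed to 756 CPM against 1256 and 622 CPM. Hair follicle genes summed to 25.5 CPM in the tumour, 28.1 CPM in papilloma 1 and 5081 CPM in papilloma 2, and melanocyte genes to 0.736, 4.74 and 71.5 CPM. In the cultures, mSCC-20 and mSCC-38, keratinocyte genes summed to 16280 and 7192 CPM and fibroblast genes to 11.1 and 212 CPM. None of the marker genes lies on chromosome 1.

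Sequences are shown for 4 members on either side of the boundary between Wdr26 and Lbr, which was chosen after the values were seen. They are the 250 bases before the annotated start of each gene, from RefSeq on build GRCm38.p6, written 5′ to 3′ on the gene's strand. Nek7 lies inside the high stretch, Wdr26 is the last member before that boundary, and Lbr and Degs1 lie beyond it. Capitals mark matches to 4 short motifs on either strand: TGANTCA (AP-1), GGGCGG (GC box), CCAAT and TATAAA.
Nek7, chr1:138619758-138620007, minus strand: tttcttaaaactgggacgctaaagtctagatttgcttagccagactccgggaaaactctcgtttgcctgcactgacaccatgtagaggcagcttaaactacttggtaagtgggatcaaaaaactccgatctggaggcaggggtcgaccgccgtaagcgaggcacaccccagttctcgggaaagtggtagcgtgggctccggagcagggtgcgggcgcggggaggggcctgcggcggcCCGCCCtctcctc
Wdr26, chr1:181211979-181212228, minus strand: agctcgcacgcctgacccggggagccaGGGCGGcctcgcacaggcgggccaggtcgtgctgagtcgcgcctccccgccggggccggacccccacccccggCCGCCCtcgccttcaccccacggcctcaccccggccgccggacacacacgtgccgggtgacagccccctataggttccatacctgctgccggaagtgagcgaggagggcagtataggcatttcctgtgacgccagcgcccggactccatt
Lbr, chr1:181842402-181842651, minus strand: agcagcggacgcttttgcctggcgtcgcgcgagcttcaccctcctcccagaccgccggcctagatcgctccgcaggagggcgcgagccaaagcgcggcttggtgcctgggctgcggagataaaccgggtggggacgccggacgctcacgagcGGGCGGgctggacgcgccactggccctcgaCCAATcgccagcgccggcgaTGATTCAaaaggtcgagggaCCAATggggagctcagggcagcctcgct
Degs1, chr1:182282196-182282445, minus strand: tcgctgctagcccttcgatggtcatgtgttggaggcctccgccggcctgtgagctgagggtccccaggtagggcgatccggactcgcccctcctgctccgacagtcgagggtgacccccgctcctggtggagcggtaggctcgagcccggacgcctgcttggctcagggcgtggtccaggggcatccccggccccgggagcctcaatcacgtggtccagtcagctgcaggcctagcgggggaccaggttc

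A promoter window was found for 568 of the members. An AP-1 match was in 5.81% of them, against 4.80% of 8350 genes of other autosomes at the same level and 6.87% of all 27025 genes in the promoter table. GC boxes were in 57.6%, 60.8% and 32.9% of these sets, CCAAT in 35.6%, 36.2% and 34.5%, and TATAAA in 6.87%, 7.25% and 13.0%. Median GC content was 60.0% in both sets chosen by level. The matches are letters in a window and say nothing of binding.

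The tumour held more RNA from chromosome 1 than either papilloma. The median log2 ratio over the 684 members was 0.52 for the tumour against the papilloma mean, a 1.43-fold higher level, with 0.52 against papilloma 1 and 0.52 against papilloma 2. The median over the 10640 models of the other autosomes was -0.01. The other 18 chromosome medians ran from -0.20 for chromosomes 7 and 9 to 0.15 for chromosome 13, so chromosome 1 lay above each of them. Between the papillomas themselves, the chromosome 1 median was 0.02, and the other autosomes ranged from -0.02 to 0.07. The gap of 0.53 between chromosome 1 and the other autosomes in the tumour ratio was larger than any chromosome median between the papillomas. Those medians compare 2 papilloma libraries and do not measure how far a tumour varies from a papilloma, so this is not a test. Against skin, which took no part in the choice but shares the tumour library, the tumour median was 0.60 on chromosome 1 and 0.08 elsewhere.

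**Figure D1:**
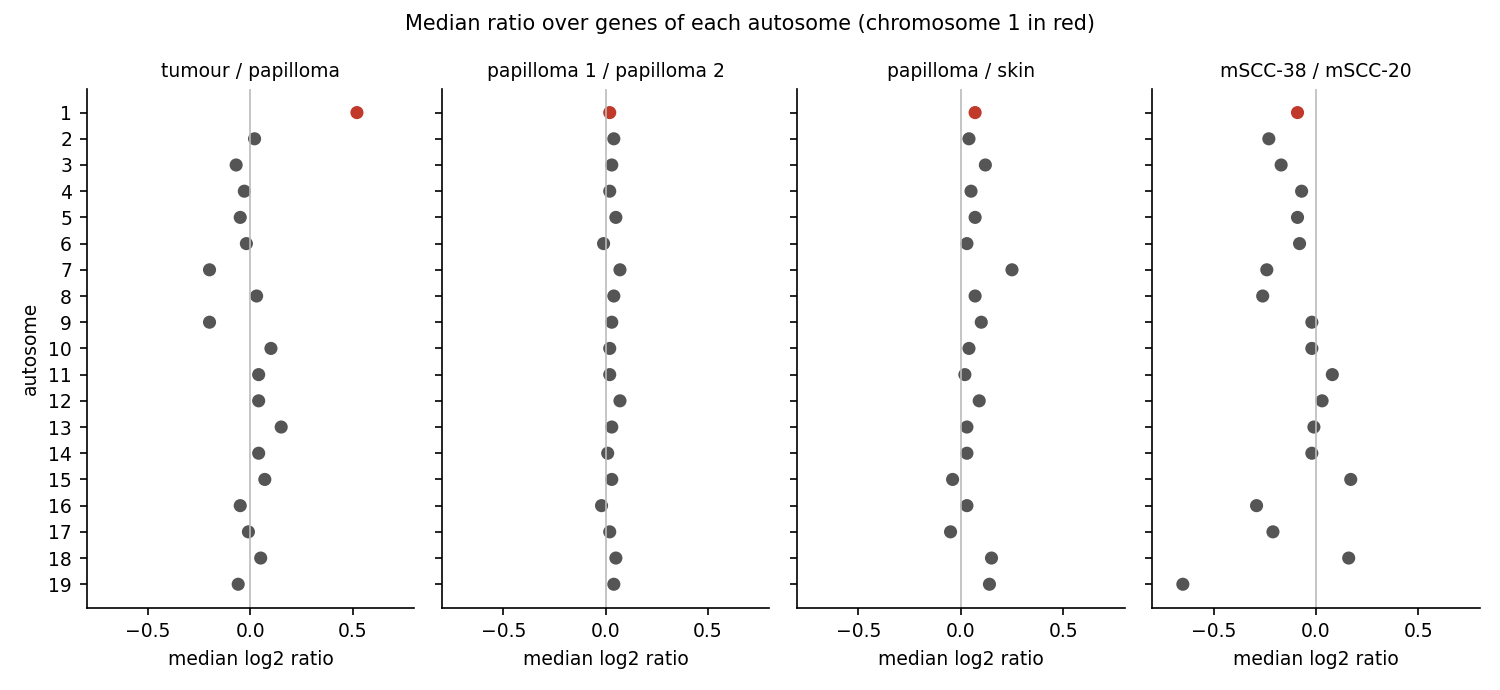
Median log2 ratio (x axis, 0.5 CPM added to each side) over the genes of each autosome (y axis) in 4 comparisons, 1 point per autosome with chromosome 1 in red. Chromosome 1 stands at 0.52 in the tumour against the papillomas, with the other autosomes between -0.20 and 0.15, and lies among the other autosomes in the remaining comparisons.

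The share of all autosomal counts that came from chromosome 1 needs no ratio of genes. It was 5.53% in skin, 5.23% in papilloma 1, 5.36% in papilloma 2, 7.998% in the tumour, 6.20% in mSCC-20 and 6.08% in mSCC-38. The tumour was the highest of the 6 libraries and both papillomas were the lowest. Over 509 members with at least 5 CPM in every library, the shares were 5.90%, 5.48%, 5.59%, 8.21%, 6.17% and 6.03% in the same order of libraries.

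The higher level in the tumour was spread over most members. The tumour lay above both papillomas in 492 of the 684 members (71.9%), against 45.4% of all autosomal models of this level. It lay below both in 141 members. The quartiles were displaced together. Those of the tumour to papilloma log2 ratio were 0.03 and 0.93 on chromosome 1 and -0.43 and 0.40 on the other autosomes. edgeR called 243 members higher and 55 lower in the tumour than in the papillomas, beside 11.9% higher and 10.6% lower of all genes tested. That contrast chose the chromosome, so nothing is read from these counts.

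The shift was also seen in genes expressed in every library. That limit counts the tumour level too, so it drops members that are very low in the tumour. Among the 509 members with at least 5 CPM in all 6 libraries, the median log2 ratio was 0.60 and the tumour lay above both papillomas in 414 (81.3%). For the 8023 models of other autosomes chosen the same way the median was 0.02 and the share 45.9%. Among the other 175 members, which are low or missing in some library, the median was 0.09 and the tumour was above both papillomas in 78 (44.6%), against -0.23 and 37.0% elsewhere. Another limit, set after the data were seen and without the tumour, kept models whose levels in skin and both papillomas lay within 1.5-fold. In the 335 members within it, the median was 0.55 and the tumour lay above both papillomas in 272 (81.2%). The corresponding 5510 models elsewhere had a median of 0.03 and a share of 47.75%.

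The difference was seen at every level and length of the gene models. Split into 3 equal groups by mean level over all autosomal models, chromosome 1 had medians of 0.43, 0.50 and 0.55 from low to high, against 0.00, 0.00 and -0.04 elsewhere. Split by model length, the medians were 0.34, 0.52 and 0.61 from short to long. The other autosomes also ran upward with length, from -0.16 through -0.01 to 0.13, so that the gap to chromosome 1 was similar in each length group.

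Along the chromosome, the high level ran through 16 of the 19 windows of 10 Mb that held at least 5 members, counting a median log2 ratio of at least 0.4. On the other autosomes, 17 of 231 such windows reached 0.4. The first 10 windows had medians of 0.50, 0.54, 0.44, 0.65, 0.54, 0.75, 0.52, 0.40, 0.52 and 0.66. Windows 13 to 18 had medians of 0.70, 0.53, 0.65, 0.75, 0.59 and 0.67. Both papillomas gave this picture, since window 6, for example, stood at 0.71 against papilloma 1 and 0.65 against papilloma 2. The papillomas differed from each other by no more than -0.11 to 0.12 in any chromosome 1 window with at least 5 members.

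**Figure D2:**
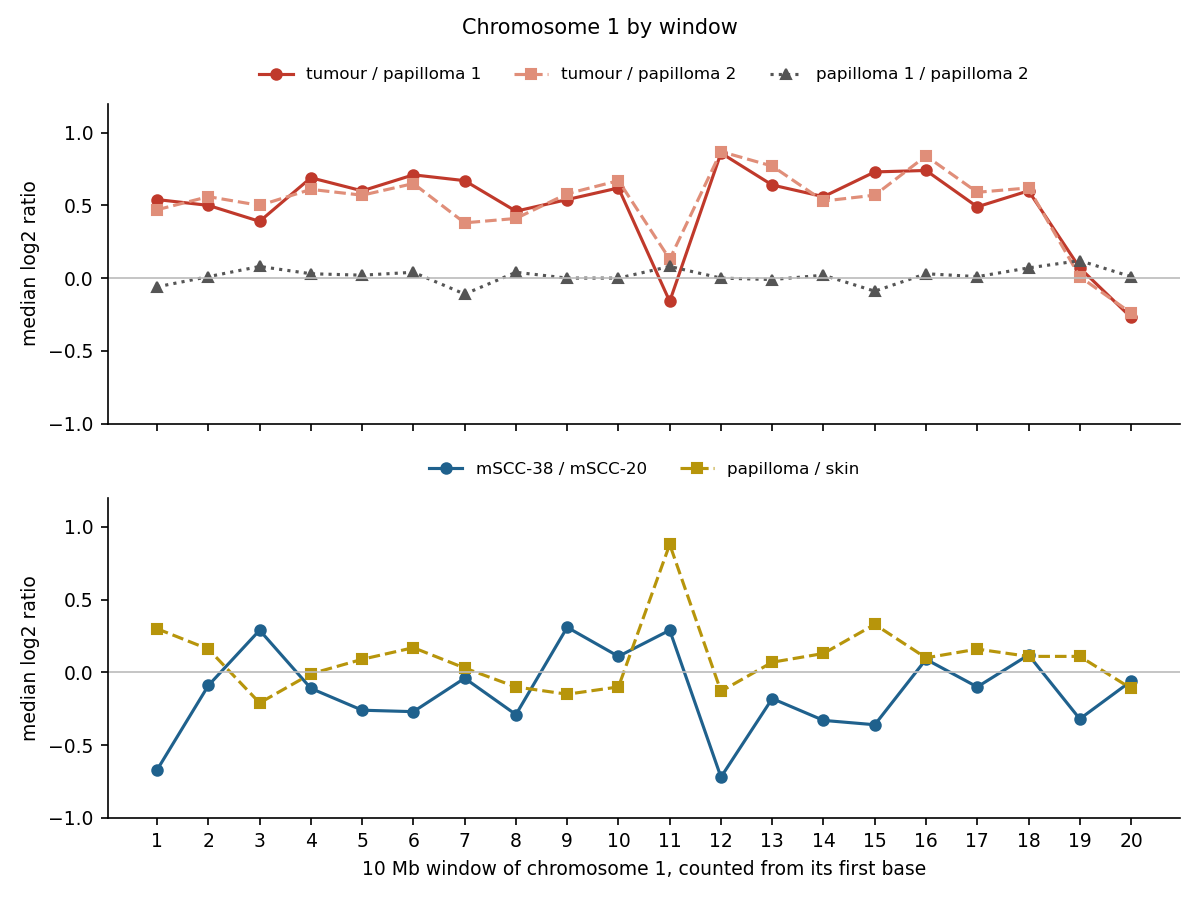
Median log2 ratio (y axis) over the members of each 10 Mb window of chromosome 1 (x axis). In the upper panel the tumour lies at 0.38 or more against each papilloma in windows 1 to 10 and 12 to 18 and drops in windows 11, 19 and 20. The lower panel shows the cultures and papilloma against skin, and window 12 rests on the single gene Dsel.

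The 3 exceptions were windows 11, 19 and 20. Window 11, with 17 members, had a median of -0.02 and holds the Serpinb cluster. Its 9 Serpinb genes had a median of -0.70, with the tumour below both papillomas in 7, while its other 8 members had a median of 0.63, with the tumour above both papillomas in 7. Window 12 held 1 member, Dsel, a gene of dermatan sulphate synthesis, with 37.1 CPM in skin, 34.0 and 33.9 CPM in the papillomas and 62.3 CPM in the tumour.

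Window 19 had a median of 0.10 over 43 members and window 20 one of -0.29 over 32. In steps of 2 Mb, the medians were 1.48 between 178 and 180 Mb (5 members), 0.38 up to 182 Mb (9 members) and 0.17 up to 184 Mb (15 members). They were then -0.75, -0.17, -0.54, -0.60, -0.29, 0.25 and -0.38 up to the end of the chromosome. The tumour lay above both papillomas in all 5 members of the step at 178 Mb, and below both in 5 of 8 members of the step at 184 Mb.

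Members were divided between the neighbours Wdr26 and Lbr, a place chosen after the values were seen. The 2 Mb medians fell over several steps, so the change is not placed at a single gene. Wdr26, a subunit of a ubiquitin ligase (mm9 chromosome 1, 183103357 to 183142109), was at 602 and 509 CPM in the papillomas and 629.7 CPM in the tumour, so it just exceeded both. Lbr, the lamin B receptor of the inner nuclear membrane (183745446 to 183772532), had 117 CPM in skin, 84.9 and 102 CPM in the papillomas and 46.6 CPM in the tumour. Lbr was thus lowest in the tumour of the 4 biopsies. Up to Wdr26, 631 members had a median log2 ratio of 0.58 and the tumour was above both papillomas in 479 (75.9%). From Lbr to the end, 53 members had a median of -0.38, and the tumour was below both papillomas in 33 (62.3%). With at least 5 CPM in every library the contrast was wider, at 0.64 over 469 members and -0.58 over 40. In that set the tumour was above both papillomas in 408 of 469 and below both in 32 of 40. Both papillomas gave the distal value, -0.60 for papilloma 1 and -0.49 for papilloma 2. Against skin the same sets stood at 0.78 and -0.39. Members under 5 CPM in some library, the tumour included, showed no such difference against the papillomas. Their medians were 0.08 over 162 before Lbr and 0.23 over 13 from Lbr on. Among those 13, the tumour lay above both papillomas in 7 and below both in 1.

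**Figure D3:**
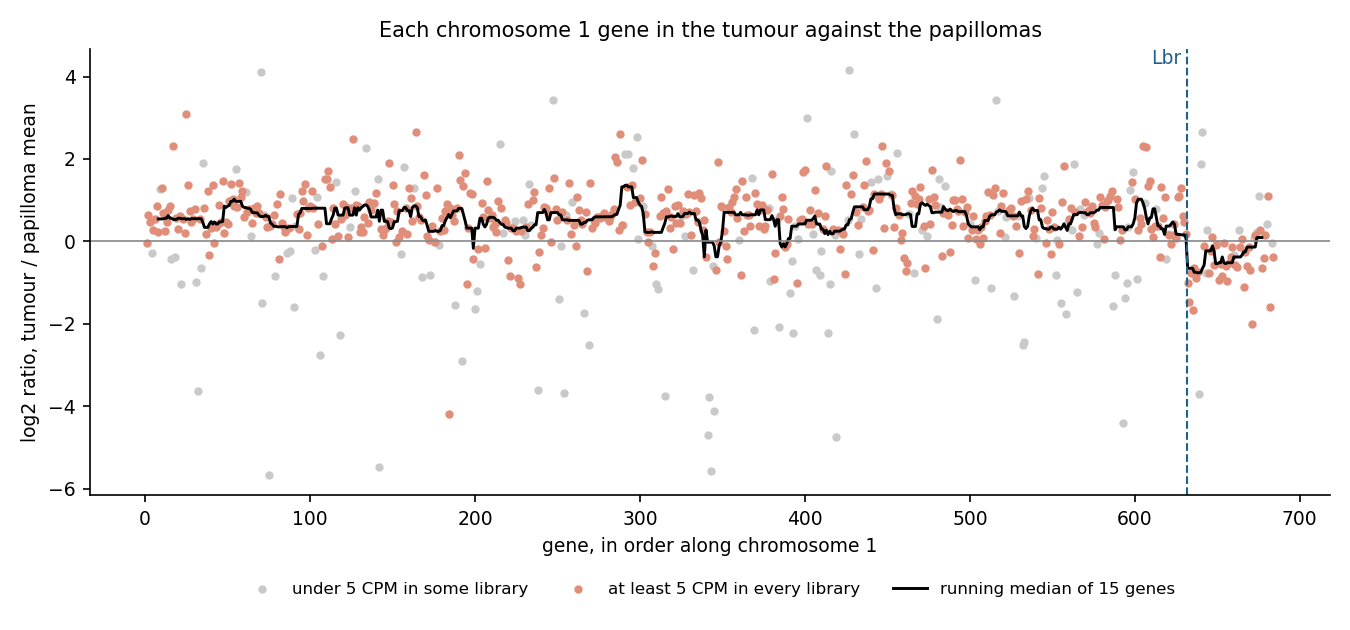
Log2 ratio of the tumour to the papilloma mean (y axis) for each of the 684 members in order along chromosome 1 (x axis), coloured by level, with a running median of 15 genes in black. The running median stays mostly above 0 up to the dashed line at Lbr and below 0 over most of the 53 members beyond it.

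Single genes on either side were picked after their values were seen. From Cep170 to Wdr26, 27 members had a median log2 ratio of 0.47. The tumour was above both papillomas in 21 of them and below both in 3. Cep170, a centriole protein gene, was at 12.2 and 15.01 CPM in the papillomas and 70.4 CPM in the tumour. Adss, of purine synthesis, was at 83.1 and 76.4 CPM against 222.8 CPM. Both lie before Lbr and were higher in the tumour than in skin too. Beyond it, Enah, an actin regulator, was at 244 and 198 CPM in the papillomas and 79.7 CPM in the tumour. Degs1, which makes ceramide, was at 607 and 670.1 CPM against 199.6 CPM. Trp53bp2, a p53 binding protein gene, was at 58.7 and 52.8 CPM against 29.7 CPM. In skin these genes had 39.9, 172 and 72.7 CPM, so the tumour lay below the papillomas in all 3 but below skin in Trp53bp2 only. From Lbr on, the tumour lay above both papillomas in 13 of 53 members (24.5%). Among these were Dusp10, a MAP kinase phosphatase gene (3.52 and 4.31 CPM in the papillomas, 27.2 CPM in the tumour), and the flagellin receptor gene Tlr5 (4.41 and 2.86 CPM, 14.8 CPM). Lamb3, a laminin-332 chain, was also among them, at 292 and 205 CPM against 529.9 CPM.

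The lists of chromosome 1 genes below were written with earlier results of these data known, and their counts describe the contrast that chose the chromosome. Over all 684 members, the tumour lay above both papillomas in 71.9% and below both in 20.6%, with a median log2 ratio of 0.52. Apart from the Serpinb list, the share above both ran from 61.5% in the matrix list to 88.2% in the core machinery list. Core cell machinery, which most cell types express, mostly had the tumour above the papillomas. All 34 genes were members, and the tumour lay above both papillomas in 30 and below both in 4. The median log2 ratio was 0.35, against -0.01 over the other autosomes and 0.52 over all chromosome 1 members. Tpr, a nuclear pore protein gene, was at 126, 178, 175 and 416 CPM in skin, papilloma 1, papilloma 2 and tumour. Sf3b1, a core splicing factor, was at 321, 427, 395 and 761 CPM, and Xrcc5, which encodes the Ku80 DNA end-binding protein, at 28.9, 54.0, 44.6 and 112 CPM. In each of these genes the tumour was the highest biopsy by more than the papillomas differed. The ribosomal protein genes Rpl31 and Rpl37a went the other way, with log2 ratios of -0.43 and -0.43. The other lower genes were Mrpl15, of the mitochondrial ribosome, at -0.04 (0.08 with scaling by total counts alone) and Eprs, a tRNA synthetase gene beyond Lbr, at -0.57.

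The replication and mitosis genes divided by position. Of 18 members, the 14 with the tumour above both papillomas all lie before window 19, and the 4 with the tumour below both lie in windows 19 and 20. Bard1, the partner of Brca1, was at 10.6 and 12.3 CPM in the papillomas and 33.2 CPM in the tumour. Aspm, a spindle pole gene, was at 26.8 and 32.5 CPM against 52.3 CPM, and the replicative helicase genes Mcm3 and Mcm6 had log2 ratios of 0.55 and 0.37. The 4 lower genes were Cenpf, a kinetochore gene (44.9 and 50.9 CPM against 31.5 CPM), Nek2, a centrosome kinase gene (23.4 and 21.6 CPM against 13.7 CPM), Dtl and Parp1. Dtl, a replication-coupled ubiquitin ligase gene, had a log2 ratio of -0.25 and the DNA repair gene Parp1 one of -0.07. Parp1 lies before Lbr, and its tumour level of 49.1 CPM was under those of the papillomas, 54.2 and 49.4 CPM, by less than they differed. With scaling by total counts alone its log2 ratio was 0.06 and the tumour lay above both papillomas in 15 of the 18 genes.

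Genes of cell death and the p53 pathway had a median log2 ratio of 0.98 over 10 members, with the tumour above both papillomas in 8 and below both in 1. Cflar, which blocks caspase 8, was at 67.0, 114, 99.0 and 276 CPM in skin, papilloma 1, papilloma 2 and tumour. Casp8 itself was at 25.9, 60.6, 48.6 and 103 CPM. Mdm4, a p53 inhibitor, was at 35.7, 28.8, 42.0 and 84.1 CPM. All 3 were highest in the tumour. Bcl2, which blocks mitochondrial cell death, had 28.3 CPM in skin, 11.4 and 11.2 CPM in the papillomas and 23.9 CPM in the tumour, so the tumour was above the papillomas but not above skin.

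Matrix and basement membrane genes went both ways, with the tumour above both papillomas in 8 of 13 members and below both in 5. Lamc1, a laminin chain gene, was at 142, 158, 133 and 308 CPM in skin, papilloma 1, papilloma 2 and tumour. Fn1, fibronectin, was at 251, 272, 283 and 871 CPM, and Dst, a linker of hemidesmosomes to keratin, at 154, 85.9, 88.6 and 240.2 CPM. These 3 genes were highest in the tumour. The collagen gene Col3a1 was at 1225 and 1044 CPM in the papillomas and 978 CPM in the tumour. The collagen receptor gene Ddr2 was at 61.7 and 64.2 CPM against 22.2 CPM, and Igfbp5, a growth factor binding protein gene, at 68.1 and 56.1 CPM against 26.7 CPM. The fibroblast marker sum in the tumour lay between those of the papillomas.

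Among 16 immune and inflammation members, the tumour lay above both papillomas in 12 and below both in 4, with a median log2 ratio of 0.73. The pan-leukocyte gene Ptprc was at 22.8 and 21.7 CPM in the papillomas and 67.5 CPM in the tumour, and Fcgr3, an antibody receptor gene of myeloid cells, at 18.2 and 22.2 CPM against 75.6 CPM. Leukocyte marker sums from other chromosomes moved the same way, from 167 and 165 CPM to 301.9 CPM, and their part in these values was not tested. The neutrophil chemokine receptor gene Cxcr2 was lower in the tumour, at 25.6 CPM against 34.3 and 40.7 CPM.

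The 8 listed Serpinb members had a median log2 ratio of -2.24, with the tumour above both papillomas in 0 and below both in 7. Serpinb12 was at 11.7, 590.0, 357 and 17.6 CPM in skin, papilloma 1, papilloma 2 and tumour, and Serpinb7 at 143, 40.1, 36.7 and 1.73 CPM. Serpinb5, the maspin gene, was at 575, 804, 758 and 603 CPM. The keratinocyte marker sum was lower in the tumour too, as given above, although 3 of its 6 genes were above both papillomas and 3 below both. Its part was not tested. Reads of Serpinb3a and Serpinb3b could be split between near-identical copies.

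In signalling and transcription the tumour lay above both papillomas in 16 of 24 members and below both in 5, with a median log2 ratio of 0.65. Abl2, a tyrosine kinase gene, was at 38.8, 80.8, 77.2 and 312 CPM in skin, papilloma 1, papilloma 2 and tumour. Elf3, an epithelial ETS factor gene, was at 3.06, 50.9, 50.1 and 310.3 CPM. Ikzf2, which encodes the Helios zinc finger protein, was at 41.2, 30.2, 30.8 and 133 CPM. Of the list members in windows 19 and 20, Lbr was lowest in the tumour, as given above, while Tgfb2 and Atf3 lay between the papillomas under the TMM scaling used here.

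**Figure D4:**
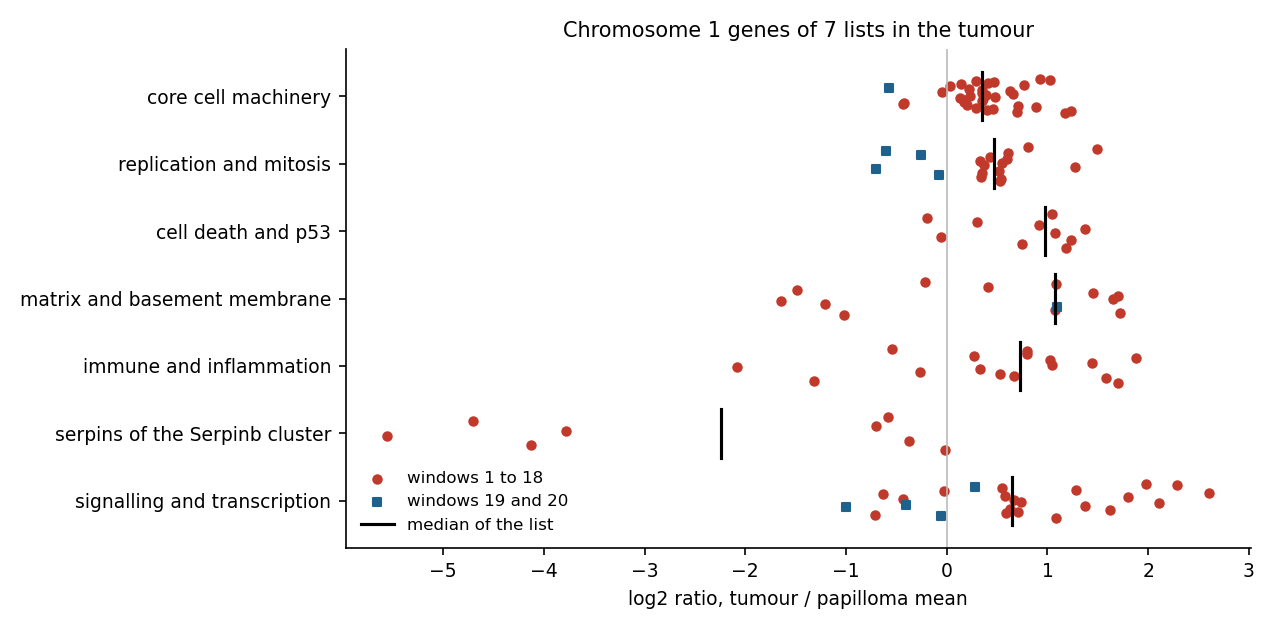
Log2 ratio of the tumour to the papilloma mean (x axis) for the members of 7 gene lists (y axis), 1 point per gene, with blue squares for genes in windows 19 and 20 and a black bar at each list's median. Medians range from -2.24 for the Serpinb genes to 1.08 for matrix genes, and the 4 replication and mitosis genes below 0 are those of windows 19 and 20.

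Single genes reached far beyond the shift of the chromosome. The 8 highest called members in the tumour were Lgr6, Mgat4a, Dnm3, Irs1, Klhdc8a, Rdh10, Dusp10 and Nbeal1. Dnm3 and Klhdc8a passed the mean of 5 CPM only through the tumour. They were at 31.6 and 32.8 CPM there and at most 3.46 and 5.79 CPM in any other library. Lgr6, an R-spondin receptor and hair follicle stem cell gene, was at 21.9, 2.81, 4.94 and 78.3 CPM in skin, papilloma 1, papilloma 2 and tumour. Mgat4a, of N-glycan branching, was at 57.9, 13.9, 20.8 and 309 CPM, and Rdh10, of retinoic acid synthesis, at 17.7, 29.3, 26.5 and 242 CPM. The 8 lowest were Aox4, Serpinb3b, Chi3l1, Serpinb12, Vsig8, Serpinb7, Slc16a14 and Tfap2b. Aox4, an aldehyde oxidase gene, was at 22.4, 64.0, 88.3 and 1.23 CPM, and Chi3l1, a chitinase-like protein gene, at 15.8, 229, 489.7 and 12.9 CPM. Among the members with the highest level in their window, Dbi, an acyl-CoA binding protein gene, had a log2 ratio of -0.82 and Nek7 one of 1.70. Nek7, a kinase gene of mitosis and inflammasome activation, was at 83.2, 102, 108 and 342 CPM.

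The comparison of papilloma with skin lies outside the choice of the chromosome, although the papillomas are shared with it, and asks how the benign lesion differs from normal tissue. Chromosome 1 as a whole did not stand apart in it. The median log2 ratio was 0.07 on chromosome 1 and 0.06 on the other autosomes, with 0.06 for papilloma 1 and 0.05 for papilloma 2, and 6 of 18 other autosomes had a higher median. By edgeR's quasi-likelihood test with Benjamini-Hochberg adjustment over 16353 genes, 112 members rose (16.4%) and 102 fell (14.9%), against 12.0% and 14.1% of all genes tested and 14.98% and 13.2% of other autosomal models of this level. With scaling by total counts alone the split was 47 risen and 169 fallen. Window 11, with the Serpinb genes, had the highest papilloma to skin median, 0.88, and the other windows with at least 5 members lay between -0.21 and 0.33.

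The 6 members that rose most in papilloma were Serpinb3a, Il19, Il24, Sgpp2, Gpr39 and Tnn. Sgpp2, a sphingosine phosphate phosphatase gene, had 1.43 CPM in skin, against 166 and 133 CPM in the papillomas. Their mean was 149.8 ± 23.3 CPM (SD, n = 2). Sgpp2 rose by 6.71 ± 0.30 on the log2 scale (SE), with an adjusted p of 0.00383 in edgeR. The tumour had 11.8 CPM of it. Sgpp2 passed the mean of 5 CPM only through the papillomas. Among the 6 that fell most were Efhd1, Cacna1s, Pard3b and Eya1. Efhd1 and Pard3b passed that mean only through skin. They were at 40.2 and 21.3 CPM there and at most 6.60 and 4.34 CPM in any other library. Cacna1s, the calcium channel of skeletal muscle, had 147 CPM in skin, against 23.3 and 14.2 CPM in the papillomas, beside muscle marker sums of 7685, 1443 and 886 CPM. The part of muscle in that value was not tested. The calls of Efhd1 and Pard3b were lost with DESeq2's size factors in edgeR, at an adjusted p of 0.0549 and 0.0582. Over all alternatives in edgeR and DESeq2, their adjusted p ran from 6.35e-05 and 0.000931 up to those values.

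The counts of called list members stand beside 12.0% risen and 14.1% fallen over all genes tested. Of 8 Serpinb members, 5 rose and 1 fell in papilloma. Serpinb7 was the one that fell, by 1.89 ± 0.15 on the log2 scale (SE, adjusted p = 0.00578 in edgeR). In the immune list 6 of 16 rose and 2 fell, and in the matrix list 3 of 13 rose and 3 fell. Igfbp5 fell by 2.57 ± 0.20 on the log2 scale (SE, adjusted p = 0.00578 in edgeR). Of the core machinery genes 4 of 34 rose and 0 fell, and of replication and mitosis genes 4 of 18 rose and 0 fell, the latter including Mcm3 and the kinetochore gene Nuf2. The share risen in the core list, 11.8%, was near that of all genes. With scaling by total counts alone both lists had 0 calls in either direction, and their papilloma to skin medians went from 0.36 and 0.33 to -0.06 and -0.07. Cell death genes had 2 up (Casp8 and Phlda3) and 1 down (Bcl2) of 10, and signalling genes 4 up and 6 down of 24. Under that scaling the Casp8 call was lost (adjusted p = 0.0585 in edgeR) and signalling genes had 2 up and 9 down. The calls named for Serpinb7 and Igfbp5 were kept under TMM, total-count and DESeq2 scaling.

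The cultures ask whether cells with different tumour-forming ability differ, and chromosome 1 did not stand apart between them. The median log2 ratio of mSCC-38 to mSCC-20 was -0.09 on chromosome 1 and -0.10 on the other autosomes. Other chromosomes ranged from -0.65 (chromosome 19) to 0.17 (chromosome 15), and 10 of 18 lay above chromosome 1. Its windows with at least 5 members ran from -0.67 to 0.31, none reached 0.4 and 1, the first, was at -0.4 or lower. With 1 library a side there is no replicate check. At least 4-fold differences with at least 10 CPM in the higher culture were seen upward in 47 members (6.87%) and downward in 18 (2.63%), beside 5.78% and 2.66% of all autosomal models of this level.

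Set against the papillomas, the cultures had chromosome 1 medians near those of the other autosomes. Among members with at least 5 CPM in every library, the median log2 ratio of mSCC-20 to papilloma was 0.34 before Lbr and 0.50 from Lbr on, against 0.39 on the other autosomes. For mSCC-38 these medians were 0.21, 0.26 and 0.24. The tumour stood at 0.64, -0.58 and 0.02 in the same sets. Levels were also set side by side over all libraries. Over the 509 members with at least 5 CPM in every library, each gene was set against its own mean over the 6 libraries, and the median deviation of the other autosomes was subtracted. For windows 1 to 18 the result was -0.12 in skin, -0.09 in papilloma 1, -0.07 in papilloma 2, 0.49 in the tumour, -0.10 in mSCC-20 and -0.12 in mSCC-38. For windows 19 and 20 it was 0.01, -0.02, -0.06, -0.24, 0.14 and 0.06 in the same order. Because each gene is centred on these same libraries, a high tumour value by itself places the others below 0, so the sign of the other 5 is not a result.

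**Figure D5:**
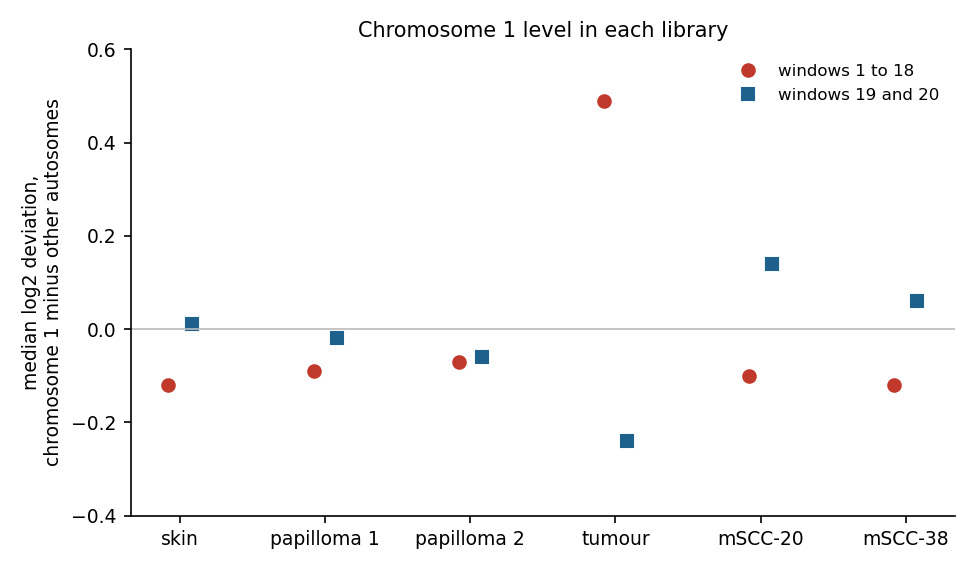
Median log2 deviation of chromosome 1 genes from their own mean over the 6 libraries, minus that of the other autosomes (y axis), for each library (x axis), with red circles for windows 1 to 18 and blue squares for windows 19 and 20. The tumour stands at 0.49 and -0.24, while the other libraries lie between -0.12 and 0.14, on a scale centred on the same 6 libraries.

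Single genes on chromosome 1 separated the cultures widely. The 6 most above in mSCC-38 were Cd34, Prrx1, Kif26b, Lgr6, Irs1 and Pi15. Cd34, a surface marker of hair bulge and vascular cells, was at 0.617 CPM in mSCC-20 and 679 CPM in mSCC-38, and Prrx1, a mesenchymal homeobox gene, at 2.18 and 364 CPM. The matrix list pointed the same way, with 5 of 13 members at least 4-fold higher in mSCC-38 and 0 lower, among them Fn1 at 129 and 1788 CPM and Ddr2 at 2.14 and 35.2 CPM. The 6 most below were Ccl20, Elf3, Abca12, Tnfsf18, Plekha6 and Slc23a3. Ccl20 and Tnfsf18 passed the mean of 5 CPM only through mSCC-20. They were at 73.0 and 41.2 CPM there and at most 4.06 and 3.14 CPM in any other library. Elf3 was at 50.2 CPM in mSCC-20 and 0.121 CPM in mSCC-38, and Abca12, a lipid transporter gene of the skin barrier, at 124 and 1.06 CPM. Keratinocyte marker sums were lower and fibroblast sums higher in mSCC-38, as given above, and their part was not tested.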

How the data were processed

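Total RNA of 6 samples was made into libraries with a SOLiD small RNA preparation set, per the labels' protocols. The authors deposited 1 table with raw counts and RPKM per gene model on mm9, per the file headers and the submitters' processing notes. The sources used here do not name an aligner or counter, nor say whether strand was used, so overlapping and near-identical genes cannot be separated. The deposited RPKM values were not used for any ratio. The members and lists were chosen with earlier results of these data known.

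Counts were turned into CPM with TMM factors (edgeR 4.0.16, R 4.3.3), while the 5 CPM limit used unscaled CPM. Ratios had 0.5 CPM added to each side. Models were placed in 10 Mb windows by their start. The 6 models on unplaced chromosome 1 sequence were left out. edgeR's quasi-likelihood test was fitted to the 4 biopsies over 16353 genes, all 684 members among them, with a Benjamini-Hochberg adjusted p under 0.05. The fit had 1 residual degree of freedom, from papilloma, so skin and tumour were assumed to vary like it. The SE given with an edgeR change is its absolute log2 value divided by the square root of the test's F statistic. That SE was thus derived from the test and was not estimated separately. The script of this edgeR fit was tested on simulated counts. DESeq2 1.42.0, other scalings, filters and window sizes were alternatives. Named genes were the member with the highest level per window, the 8 highest and 8 lowest called in tumour against papilloma, the 6 and 6 in papilloma against skin and between cultures, and examples from 7 lists. Examples and genes beside Lbr were picked after their values were seen. Of the members, 675 matched a RefSeq gene by transcript. Some genes that this rule names are not reported here.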

Additional observations from a re-analysis of the deposited data

How the results depend on the processing

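The tumour to papilloma median on chromosome 1 kept its direction in every alternative run, and exceeded that of the other autosomes by 0.51 to 0.64. It was 0.64 with total counts only, 0.48 with DESeq2 size factors, 0.49 and 0.53 with means of at least 1 and 20 CPM, 0.60 with at least 5 CPM in every library and 0.45 as a ratio of summed CPM. It was 0.55 in models within 1.5-fold across skin and the papillomas, and leaving out either papilloma gave 0.52. Total-count scaling moved the median of all autosomal models in this comparison from 0.01 to 0.14. Of 35 windows of 5 Mb 30 lay above the median of the other autosomes, and of 10 windows of 20 Mb 9 did, against 17 of 19 windows of 10 Mb. The mSCC-38 to mSCC-20 median was 0.00 with total counts only, -0.07 with DESeq2 size factors, -0.11 with 0.1 CPM added, -0.04 and -0.18 with the limits of 1 and 20 CPM, -0.19 with 5 CPM in every library, -0.14 from summed CPM and -0.25 in the 1.5-fold set. Papilloma against skin turned to -0.34 with total counts only (other autosomes -0.35) and -0.02 with the limit of 1 CPM. It was 0.05 with DESeq2 size factors, 0.19 with 20 CPM, 0.17 with 5 CPM in every library, 0.38 from summed CPM, 0.11 with 5 CPM in each biopsy (added after the data were seen), and 0.05 to 0.06 without 1 papilloma. With total counts only, 32 members were called lower in the tumour (55 with TMM), and in papilloma 47 higher (112) and 169 lower (102). Counts of calls without 1 papilloma were not run, since no residual degree of freedom is left. No paired analysis was possible because the labels do not say which samples share an animal. One library each of skin, tumour and cultures limits all of these values.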

Other observations

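Other stretches of the genome in the tumour also held windows past 0.4 or -0.4 in the tumour to papilloma median log2 ratio. On chromosome 8, windows 4, 5 and 7 stood at 0.72, 0.55 and 0.41, with 25, 36 and 16 members. On chromosome 7, windows 1, 2, 3, 6 and 8 lay between -0.40 and -0.56, while windows 14, 15 and 16 lay at 0.40, 0.56 and 0.64. In papilloma against skin those 3 distal windows of chromosome 7 were at 0.17, 0.26 and 0.86. The low windows of chromosome 7 were also above skin in the papillomas, at 0.17, 0.30, 0.34, 0.36 and 0.49. In tumour against skin these low windows were at -0.18, -0.07, -0.15, -0.08 and 0.32. Chromosome 10 had windows 3, 6 and 10 at 0.52, 0.50 and 0.57, and chromosome 2 had windows 18 and 19 at 0.45 and 0.43. The lowest window, window 9 of chromosome 16 at -3.96, also separated the papillomas from each other, with -4.98 for papilloma 1 against papilloma 2. In that window the tumour stood at 0.00 against papilloma 1 and -4.91 against papilloma 2.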
